A study of Mus musculus with 4 samples.

Results

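The genes described here are 38 genes of melanin synthesis and of the melanosome, the pigment organelle of melanocytes, out of 22524 genes listed per library. They were taken by name: the melanin enzymes, the melanosome's structural proteins, channels and transporters, the proteins that carry it along the cytoskeleton, and subunits of the sorting complexes BLOC-1, BLOC-2, BLOC-3 and AP-3. From textbook knowledge, but with earlier results of these data known, 10 were classed as melanocyte-restricted, 11 as shared with other cells of skin or blood and 17 as ubiquitous. All 38 symbols were found and all passed the filter on low counts.

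RNA was sequenced from tdTomato-positive cells that had been sorted by flow cytometry from dermal hyperplasia of mice, a melanocytic overgrowth that precedes tumours. Every mouse carried the transgenes Tyr::NrasQ61K and Tyr::CreERT2 and the reporter R26R-LSL-tdTomato, so that tamoxifen labelled cells in which the tyrosinase promoter was active. The 2 libraries named Ezh2Y646N came from mice that also carried ColA1-LSL-Ezh2Y646N, a mutant of the histone methyltransferase Ezh2 held behind a stop cassette, and the 2 libraries named NrasQ61K are the comparison group. Ages and the number of animals behind each library are not given in the labels, so p-values measure the spread between libraries, which may be technical. The question is whether the pigment programme differs between the groups.

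Melanin is made inside melanosomes, which form from endosomes in stages. Pmel assembles into fibrils, on which pigment is later laid down. BLOC and AP-3 complexes then deliver tyrosinase and its relatives, and channels set the organelle's acidity and ion content. Ripe melanosomes are held at the cell edge by Rab27a, melanophilin (Mlph) and the motor myosin Va (Myo5a) before they pass to keratinocytes. Mutations of many of these genes dilute coat colour in mice and cause albinism or Hermansky-Pudlak syndrome in people.

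The promoters of the 3 melanin enzyme genes are shown because Tyr drives the labelling and because they carry the M-box, TCATGTG, a site type known for the melanocyte regulator Mitf. Each is the 250 bases before the gene's start in RefSeq, build GRCm38.p6, on the gene's own strand. Tyr lies at chr7:87493513-87493762 on the minus strand, Tyrp1 at chr4:80833963-80834212 on the plus strand and Dct at chr14:118052247-118052496 on the minus strand. Capitals mark the M-box in either orientation, and CACATGA is its reverse complement.
Tyr: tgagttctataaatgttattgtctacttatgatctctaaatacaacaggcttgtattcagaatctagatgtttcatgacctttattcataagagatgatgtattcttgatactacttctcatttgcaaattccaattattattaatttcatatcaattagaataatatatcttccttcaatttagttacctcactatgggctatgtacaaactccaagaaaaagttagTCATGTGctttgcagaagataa
Tyrp1: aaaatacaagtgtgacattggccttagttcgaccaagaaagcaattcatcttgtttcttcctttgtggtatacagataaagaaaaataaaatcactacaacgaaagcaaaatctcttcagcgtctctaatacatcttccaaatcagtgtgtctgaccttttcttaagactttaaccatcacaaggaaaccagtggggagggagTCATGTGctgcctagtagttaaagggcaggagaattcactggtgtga
Dct: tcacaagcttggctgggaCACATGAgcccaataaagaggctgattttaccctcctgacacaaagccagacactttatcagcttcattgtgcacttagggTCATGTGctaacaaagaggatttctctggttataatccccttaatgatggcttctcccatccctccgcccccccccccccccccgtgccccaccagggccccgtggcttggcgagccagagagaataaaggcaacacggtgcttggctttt
The M-box began 22 bases before the start in Tyr, 47 in Tyrp1, and 232 and 151 in Dct.

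Of the 10 melanocyte-restricted genes, 6 had a promoter in the RefSeq table, and 5 of these held an M-box (Tyr, Tyrp1, Dct, Slc24a5 and Trpm1). It was also found in 1 of 9 shared genes with a promoter there (Slc7a11) and in 1 of 16 ubiquitous genes (Hps1). Over all 27025 genes of that table the share with an M-box in at least 1 window of this length was 3.72%. The related E-box TCACGTG, which differs from the M-box in 1 letter and was searched, like it, on both strands, was found in 0 of 6 restricted genes, in 1 of 9 shared genes (Mlph) and in 6 of 16 ubiquitous genes (Hps3, Hps5, Vps33a, Bloc1s1, Bloc1s3 and Atp7a), against 3.58% of all genes of the table. The stretches below set both motifs side by side; these genes were chosen after the matches were seen. Slc24a5, Trpm1, Slc7a11 and Hps1 show the M-box, and Hps3, Vps33a and Bloc1s1 the E-box. In the last 3 genes the E-box is read on both strands, overlapping by all but the last base, so an eighth letter is in capitals.
Slc24a5: aggaaggagactgctCACATGAttcagc
Trpm1: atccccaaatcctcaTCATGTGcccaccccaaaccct
Slc7a11: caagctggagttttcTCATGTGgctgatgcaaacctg
Hps1: caaagcaggccccggTCATGTGgctgagtc
Hps3: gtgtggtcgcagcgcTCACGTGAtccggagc
Vps33a: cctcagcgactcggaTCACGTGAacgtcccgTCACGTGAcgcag
Bloc1s1: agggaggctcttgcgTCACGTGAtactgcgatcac
They lie on GRCm38.p6 at chr2:125068099-125068126 (plus), chr7:64153678-64153714 (plus), chr3:50443667-50443703 (minus), chr19:42779979-42780008 (minus), chr3:20035311-20035341 (minus), chr5:123573016-123573059 (minus) and chr10:128923525-128923559 (minus). A match is a string of letters and shows no binding.

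Total counts ranged from 14808801 to 20600297 per library, and members had 59 to 41742 counts in a library. Keratin genes, which mark keratinocytes, took 1.70% to 6.42% of counts. The melanocyte genes Mitf, Sox10, Pax3, Kit and Ednrb were present in every library, at 60.0 to 202 CPM (counts scaled by library size after a trimmed-mean correction, TMM). Y-linked RNA was near 0 in 1 library labelled Ezh2Y646N and present in the other 3. Ezh2 RNA lay between 91.6 and 135 CPM in Ezh2Y646N and between 75.1 and 171 CPM in NrasQ61K, and counts per gene do not separate the mutant transcript. In bulk libraries like these, fewer cells of a type and less RNA per cell cannot be told apart.

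None of the 38 members passed the test, which was edgeR's quasi-likelihood test with p-values adjusted over all 14265 genes tested at a threshold of 0.05. The test called 1.77% of all genes. DESeq2 called 2 members lower in Ezh2Y646N (Slc7a11 and Gpnmb), against 6.5% of all genes in either direction, and limma voom called 0, against 1.5%. At an unadjusted p under 0.05 there were 6 members in edgeR, against 14.3% of all genes. The groups did not overlap for 17 of the 38, against 44.2% of all genes. Ezh2Y646N was above in 9 of these and below in 8, where 21.1% and 23.1% of all genes were. These counts were near the background. Log2 fold changes of Ezh2Y646N over NrasQ61K were above 0 for 19 members and below 0 for 19, where 46% of all genes were above, with a median of 0.02 against -0.04 over all genes tested.

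Restricted genes had a median log2 fold change of 0.31, with 9 of 10 above 0 and a median standard error (SE) of 0.30. Shared genes had a median of -0.21, with 4 above 0 and 7 below, and ubiquitous genes one of -0.03, with 6 above and 11 below. For the restricted genes the groups did not overlap in 4, all above in Ezh2Y646N, against the 21.1% of all genes that were above. No restricted gene had an unadjusted p under 0.05 in edgeR, DESeq2 or voom, and the 95% interval of each included 0. This median rests in part on 1 library: Ezh2Y646N replicate 1 was the highest of the 4 for 8 of the 10 restricted genes, and without it the median was 0.07. The shared median depended on the NrasQ61K libraries and was -0.56 without replicate 1 and 0.33 without replicate 2.

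**Figure D1:**
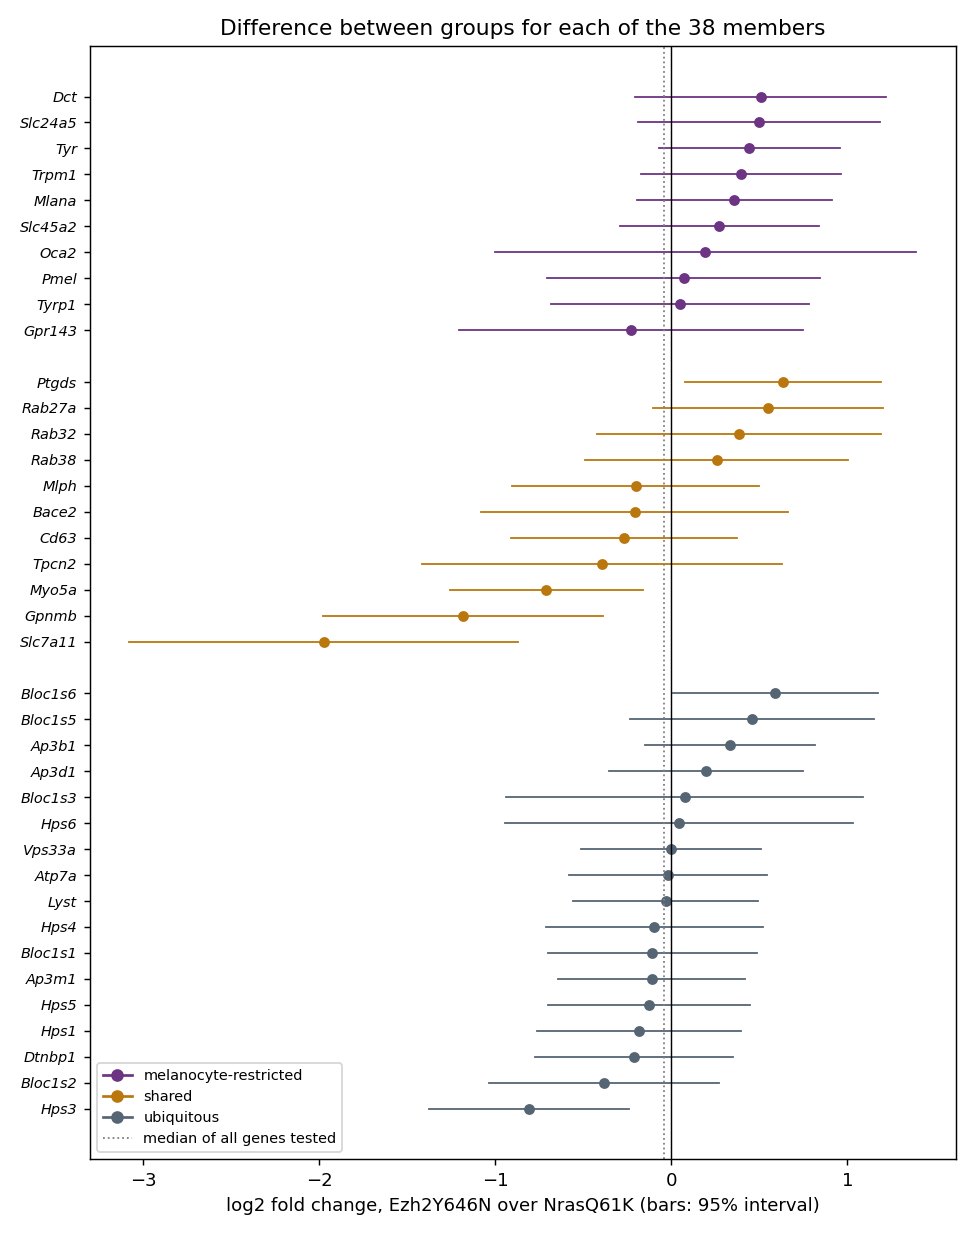
Log2 fold change of Ezh2Y646N over NrasQ61K for each of the 38 genes (points) with its 95% interval (bars), in 3 classes; the solid line is 0 and the dotted line the median of all genes tested. Restricted genes lie mostly to the right of 0, with intervals that include it, and Slc7a11 and Gpnmb lie farthest to the left.

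Melanin synthesis begins with tyrosinase (Tyr), and its relatives dopachrome tautomerase (Dct) and Tyrp1 act on later intermediates. Dct (chr14:118012790-118052244) was at 2203 and 2757 CPM in the Ezh2Y646N libraries and at 1486 and 2002 CPM in the NrasQ61K libraries. Both Ezh2Y646N values were above both others, and the log2 fold change was 0.51 (SE 0.31, 95% interval -0.21 to 1.22, adjusted p = 0.547). Tyr (chr7:87424771-87493512) was at 260.1 and 220.4 CPM against 172 and 182 CPM. Its groups did not overlap either, with a log2 fold change of 0.44 (SE 0.22, interval -0.07 to 0.96, adjusted p = 0.435). Tyrp1 was at 459 and 272 CPM against 299 and 407 CPM, so that the groups overlapped fully, and its log2 fold change was 0.05 (interval -0.68 to 0.78). Without Ezh2Y646N replicate 1 it was -0.38.

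No gene of the melanosome's structural proteins passed the test. Pmel, which forms the fibrils, was at 286 and 164 CPM in the Ezh2Y646N libraries and at 168 and 260.0 CPM in the NrasQ61K libraries. Each group held 1 high and 1 low library, as for Tyrp1, and the log2 fold change was 0.07 (interval -0.71 to 0.85). Mlana, a small membrane protein of early melanosomes, was at 169.9 and 123 CPM against 111 and 118 CPM, with both Ezh2Y646N libraries above the others and a log2 fold change of 0.36 (adjusted p = 0.595). Bace2, a protease that cleaves Pmel, was at 41.0 and 38.9 CPM against 27.9 and 64.3 CPM. Its 2 NrasQ61K libraries lay on either side of the Ezh2Y646N pair. Cd63, a tetraspanin that sorts Pmel and is found in most cells, was at 163 and 131 CPM against 138 and 216 CPM.

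**Figure D2:**
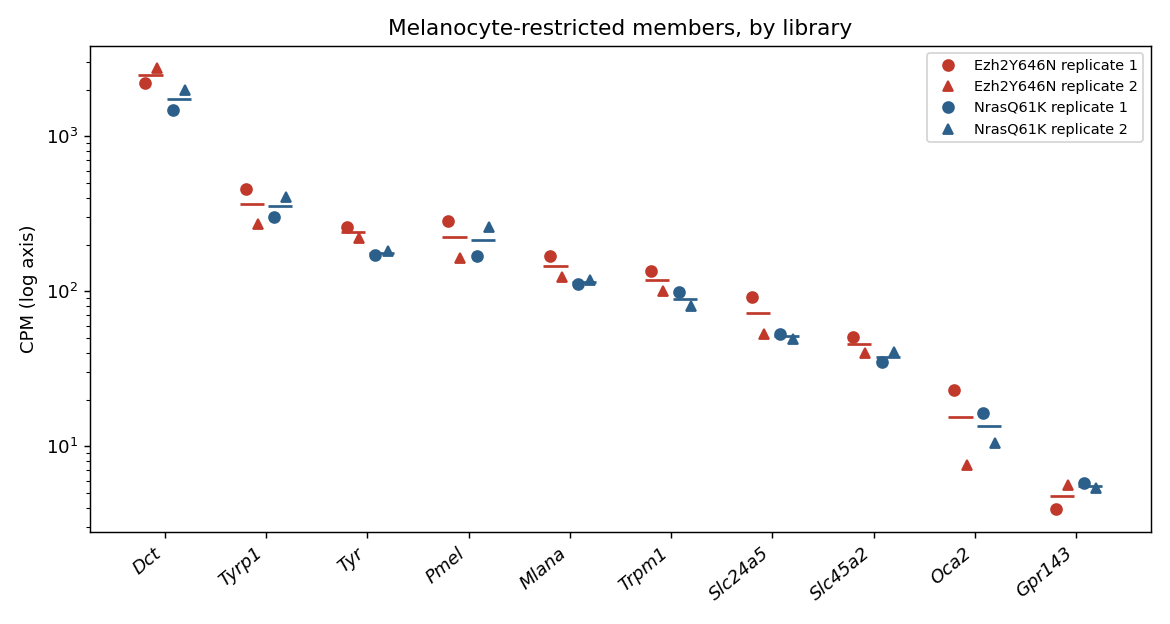
CPM on a log axis for the 10 melanocyte-restricted genes, with circles for replicate 1, triangles for replicate 2 and a bar for each group's mean. For Dct, Tyr, Mlana and Trpm1 both Ezh2Y646N libraries lie above both NrasQ61K libraries; for the other 6 genes the groups overlap.

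Gpnmb, a glycoprotein related to Pmel that is found in melanosomes and also in macrophages, was lower in both Ezh2Y646N libraries, at 373 and 327 CPM against 1044 and 544 CPM (chr6:49036546-49070929). The groups did not overlap, and NrasQ61K replicate 1 was the highest by 1.92 times over its replicate. The log2 fold change was -1.18 (SE 0.34, interval -1.98 to -0.39), with an adjusted p of 0.149 in edgeR and of 0.0123 in DESeq2. Without NrasQ61K replicate 2 edgeR called it (-1.54, adjusted p = 0.00261), and without NrasQ61K replicate 1 it was -0.64. Over all alternatives its adjusted p ranged from 0.00198 to 0.551.

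Slc7a11, the cystine transporter behind the mouse coat colour mutant subtle gray, had the largest difference of the 38. It was at 7.53 and 9.81 CPM in the Ezh2Y646N libraries and at 50.0 and 18.2 CPM in the NrasQ61K libraries (chr3:49892526-50443614). Again both Ezh2Y646N values lay below the others, and NrasQ61K replicate 1 stood 2.75 times above replicate 2. The log2 fold change was -1.97 (SE 0.47, interval -3.08 to -0.87), with an adjusted p of 0.0958 in edgeR and of 0.00147 in DESeq2. Without NrasQ61K replicate 2 edgeR called it (-2.49, adjusted p = 0.000714), and without NrasQ61K replicate 1 it was -1.07; over all alternatives the adjusted p ranged from 1.41e-07 to 0.393.

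Values of markers of other cell types in the same libraries are given here, and their part in these results was not tested. Macrophage and dendritic cell markers had log2 fold changes below 0 in 14 of 14 genes, with a median of -1.32, and none was at 0 in any library. In edgeR 0 of the 14 passed and 9 had an unadjusted p under 0.05, while DESeq2 called 5 lower and voom 0. Their summed level was 90.6 and 160 CPM in the Ezh2Y646N libraries and 193 and 448 CPM in the NrasQ61K libraries, led by Cd74 and Lyz2. It was highest in NrasQ61K replicate 2. Fibroblast markers, led by Col1a1 and Col3a1, were below 0 in 11 of 12 genes and summed to 1012 and 2277 CPM against 4581 and 2678 CPM, which is highest in NrasQ61K replicate 1. Of these 12, edgeR called 2 lower (Dpt and Pdgfrb), DESeq2 5 and voom 0. Endothelial markers, led by Plvap and Pecam1, were below 0 in 10 of 10 genes and summed to 172 and 102 CPM against 267 and 246 CPM. In edgeR 0 of the 10 passed and 3 had an unadjusted p under 0.05, while DESeq2 called 1 lower and voom 0. Of 9 lymphocyte and mast cell markers only 2 were abundant enough to test, with 0 called and 0 at an unadjusted p under 0.05 in edgeR and 0 called in DESeq2 and voom; 5 were at 0 in at least 1 library, and they summed to 5.12 to 21.8 CPM.

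**Figure D3:**
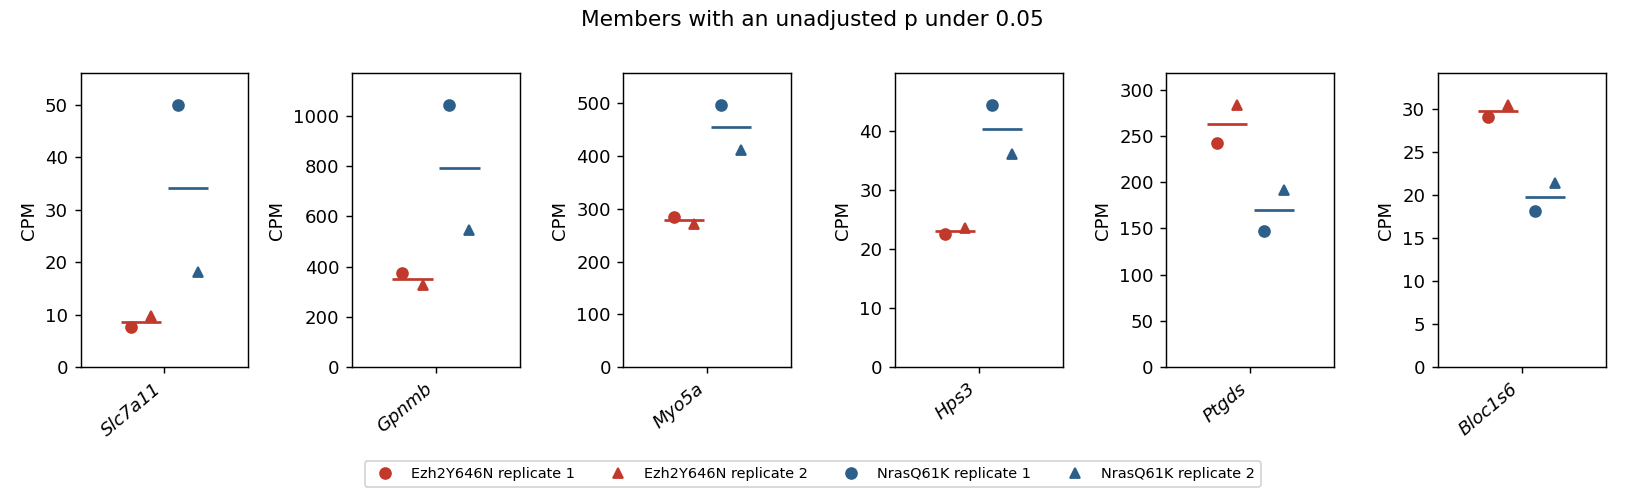
CPM from 0 for the 6 genes with an unadjusted p under 0.05, with circles for replicate 1, triangles for replicate 2 and a bar for each group's mean. The groups do not overlap in any of the 6, and the NrasQ61K libraries lie far apart for Slc7a11 and Gpnmb.

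Channels and transporters of the melanosome membrane showed no common direction, with 4 of 8 above 0. Slc24a5, an exchanger whose human gene is known for its part in skin colour, was at 91.8 and 52.7 CPM against 53.3 and 49.2 CPM; only Ezh2Y646N replicate 1 stood out. Trpm1, a channel gene of melanocytes and retina, was at 135 and 101 CPM against 98.9 and 79.9 CPM, with both Ezh2Y646N libraries above. Slc45a2, which keeps the melanosome from becoming too acid, was at 50.6 and 40.2 CPM against 34.8 and 40.4 CPM, and Ezh2Y646N replicate 2 lay within the NrasQ61K range. None of these 3 passed, with log2 fold changes of 0.50, 0.40 and 0.27 and intervals that included 0.

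Oca2, the chloride channel gene of the pink-eyed dilution locus, differed 3.08 times between the Ezh2Y646N libraries, at 23.2 and 7.53 CPM, and was at 16.5 and 10.4 CPM in the NrasQ61K libraries. Its interval of -1.003 to 1.39 was the widest of the restricted genes. Gpr143, the receptor mutated in ocular albinism, was the restricted gene below 0, at 3.91 and 5.59 CPM against 5.75 and 5.37 CPM (log2 fold change -0.23). The 2-pore channel gene Tpcn2 was at 4.77 and 10.6 CPM against 9.04 and 11.1 CPM. The copper pump Atp7a, which supplies tyrosinase with copper and serves all cells, was at 61.5 and 59.3 CPM against 70.8 and 51.8 CPM, with a log2 fold change of -0.02 (interval -0.58 to 0.54).

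None of the 3 genes of the transport complex passed the test. Myo5a (chr9:75071015-75223688) was at lower values in both Ezh2Y646N libraries, at 285 and 271 CPM against 497 and 412 CPM. Replicates differed by 1.05 and 1.21 times and the groups did not overlap. The log2 fold change was -0.71 (SE 0.23, interval -1.26 to -0.16), with an unadjusted p of 0.0175 that did not hold after adjustment (0.205). Rab27a, the GTPase on the melanosome that recruits the complex, was at 66.8 and 89.7 CPM against 42.8 and 64.0 CPM, a log2 fold change of 0.55 (adjusted p = 0.453) with both Ezh2Y646N libraries above. Mlph, the link between them, was at 62.1 and 61.6 CPM against 50.8 and 91.3 CPM, so that the NrasQ61K libraries enclosed the other group. The paralogs Rab38 and Rab32, which direct melanin enzymes to the melanosome, had log2 fold changes of 0.26 and 0.38. Rab38 was at 51.4 and 30.2 CPM against 28.5 and 39.8 CPM, and Rab32 at 20.5 and 23.9 CPM against 11.9 and 22.1 CPM; the groups overlapped for both.

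Ptgds, a prostaglandin D synthase found in melanocytes and in other cells, was higher in both Ezh2Y646N libraries, at 242 and 284 CPM against 147 and 192 CPM. The log2 fold change was 0.63 (SE 0.24, interval 0.07 to 1.19), with an unadjusted p of 0.0311 and an adjusted p of 0.278. Schwann cell and glia markers, led by Egr2 and Mbp, were above 0 in 8 of 10 genes, none at 0 in any library, and summed to 1072 and 458 CPM against 286 and 467 CPM. Their part in the result was not tested.

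The ubiquitous genes are the subunits of the sorting complexes and a few others. Replicates of these 17 genes differed by a median of 1.09 times in Ezh2Y646N and 1.17 times in NrasQ61K, against 1.41 and 1.20 times for the restricted and 1.17 and 1.56 times for the shared genes. Of the 6 BLOC-1 genes, 3 were above 0 and 3 below. Bloc1s6, the pallidin gene, was at 29.0 and 30.5 CPM against 18.1 and 21.4 CPM. Its groups did not overlap, with a log2 fold change of 0.59 (SE 0.25, interval 0.01 to 1.17), an unadjusted p of 0.0480 and an adjusted p of 0.342. Bloc1s5, the muted gene, was at 23.4 and 20.4 CPM against 13.0 and 18.9 CPM and was also above throughout. Bloc1s2 was below throughout, at 11.9 and 12.6 CPM against 16.8 and 15.2 CPM, as was dysbindin (Dtnbp1), at 22.5 and 24.5 CPM against 27.7 and 26.7 CPM. Bloc1s1 and Bloc1s3 had log2 fold changes of -0.11 and 0.08 with groups that overlapped.

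Hps3, of BLOC-2, had the largest difference among the ubiquitous genes (chr3:19995945-20035315). It was at 22.5 and 23.5 CPM in the Ezh2Y646N libraries and at 44.4 and 36.2 CPM in the NrasQ61K libraries. The groups did not overlap, and the log2 fold change was -0.81 (SE 0.24, interval -1.38 to -0.24), with an unadjusted p of 0.0113 and an adjusted p of 0.164. For its partners in BLOC-2 the groups overlapped. Hps5 was at 44.1 and 47.7 CPM against 57.7 and 42.6 CPM, and Hps6 at 6.55 and 11.7 CPM against 6.70 and 11.0 CPM. Whether Hps3 differed from them was not tested. In BLOC-3, which activates Rab32 and Rab38, Hps1 was at 21.95 and 25.55 CPM against 28.1 and 25.9 CPM. Hps4 was at 17.4 and 17.2 CPM against 19.6 and 17.4 CPM, so that 1 library of each group was equal at this precision. Log2 fold changes were -0.18 and -0.10, with intervals of -0.76 to 0.39 and -0.71 to 0.52.

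In AP-3, the adaptor that carries tyrosinase from endosomes, Ap3b1 (the pearl gene) was at 176 and 168 CPM against 137 and 136 CPM. These were the closest replicates of the complex and did not overlap between groups, with a log2 fold change of 0.33 (SE 0.21, interval -0.15 to 0.81, adjusted p = 0.56). Ap3d1 (the mocha gene) had a log2 fold change of 0.20 and Ap3m1 one of -0.11, with overlapping groups. Lyst, the gene of the beige mouse, had one of -0.03 and Vps33a, of the HOPS tethering complex, one of 0.00, with intervals of -0.56 to 0.49 and -0.51 to 0.51.

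Counts of 3 members may include reads of a neighbour. Exons of Slc24a5 overlapped those of the antisense gene Myef2 over 39.5% of their length and those of Ap3m1 overlapped antisense Vcl over 29.8%, and the strand setting of the counting is not stated. Exons of Bloc1s1 overlapped Rdh5 on the same strand over 55.9%, where how shared reads were assigned is not stated. The other overlaps with listed genes were under 5%.

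Levels of different genes were compared as RPKM (CPM divided by the length of the gene's exons in kilobases), averaged over the 4 libraries. Dct stood first at 358 RPKM, and its lowest library, at 252, was above the highest library of every other member. Ptgds (131), Tyrp1 (127), Mlana (123), Pmel (95.8) and Gpnmb (87.8 RPKM) followed, with ranges over libraries that overlapped from each to the next. Tyr, at 29.3 RPKM, lay ninth by its mean, behind Cd63 (43.9) and Ap3b1 (33.9), with ranges that also overlapped from each to the next. The length was that of all annotated exons joined, and which transcripts were expressed was not tested. The lowest were Bloc1s3 (1.44), Slc7a11 (1.54), Tpcn2 (1.69) and Gpr143 (2.58). Medians were 27.9 RPKM for restricted, 17.0 for shared and 6.84 for ubiquitous genes.

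The restricted genes were set beside 12 melanocyte genes outside the 38, among them Mitf, Sox10 and Kit. Of these 8 were above 0, with a median log2 fold change of 0.23. In edgeR 0 passed and 0 had an unadjusted p under 0.05, and DESeq2 and voom called 0. Their smallest p-values belonged to Mc1r, Kit, Mitf and Tspan10, with log2 fold changes of 0.61, -0.35, 0.35 and 0.40. Restricted genes summed to 3682 and 3743 CPM in the Ezh2Y646N libraries and to 2446 and 3153 CPM in the NrasQ61K libraries, and the groups did not overlap; Dct made up most of the sum. The 12 other genes summed to 1335 and 1365 CPM against 1096 and 1445 CPM, with overlap. With libraries scaled to the counts of these 12 genes the restricted median was 0.21, while the median of all genes moved to -0.16.

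**Figure D4:**
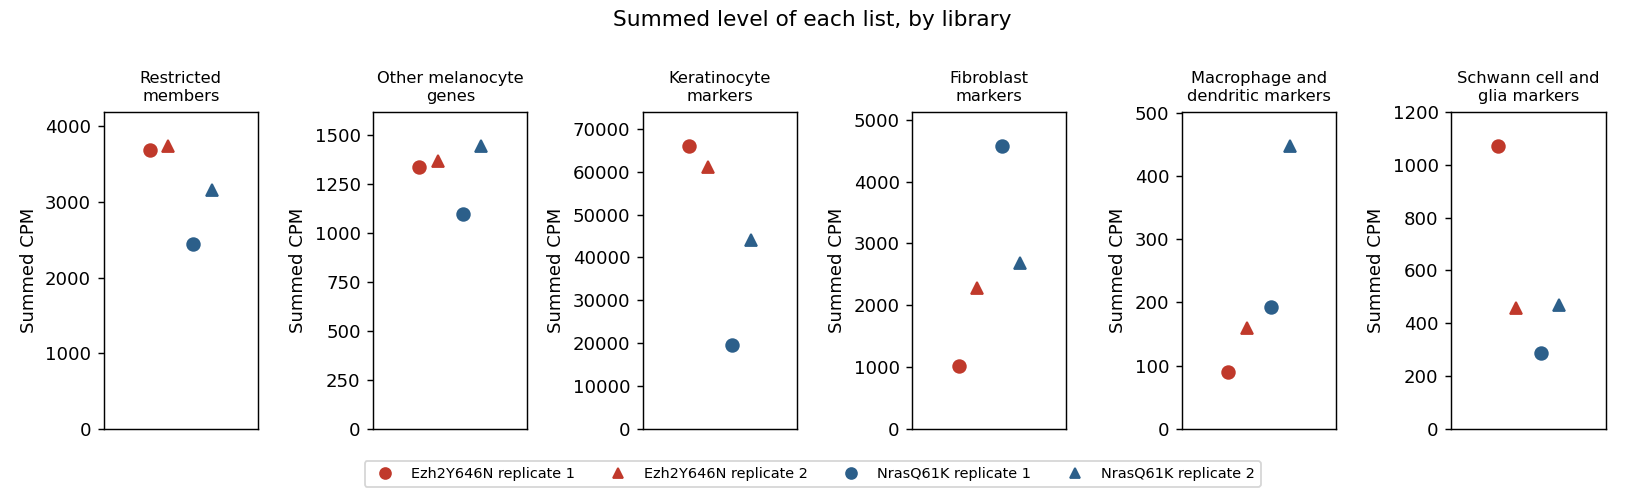
Summed CPM from 0, by library, for the restricted members, the 12 melanocyte genes outside the members, and markers of 4 other cell types; circles are replicate 1 and triangles replicate 2. NrasQ61K replicate 1 is the lowest library for both melanocyte sums and the highest for fibroblast markers.

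Of 47 tested genes from a further list of melanosome biogenesis and lysosome-related genes, edgeR and voom called 0. In edgeR 7 reached an unadjusted p below 0.05, where 14.3% of all genes did. Groups did not overlap for 14 above and 9 below in Ezh2Y646N, against 21.1% and 23.1% of all genes. The median log2 fold change was -0.05, with 23 above 0 and 24 below. DESeq2 called 3 higher (Exph5, Rab11a and Ap1b1) and 1 lower (Wipi1), against 6.5% of all genes. The counts of calls and of unadjusted p-values were near these shares. Exph5, an effector of Rab27, was at 206 and 242 CPM against 67.9 and 125 CPM, a log2 fold change of 1.22. Rab11a, a GTPase of recycling endosomes, was at 178 and 148 CPM against 65.0 and 91.3 CPM (1.06). Wipi1, an autophagy protein with a part in melanosome formation, was at 38.1 and 31.0 CPM against 93.6 and 58.7 CPM (-1.14). The AP-1 subunit gene Ap1b1 was at 211 and 218 CPM against 102 and 132 CPM (0.87). In each of these 4 genes the groups did not overlap, and edgeR's adjusted p was between 0.0922 and 0.119. Exph5, Rab11a and Ap1b1 are also expressed by keratinocytes, whose markers, led by Krt10 and Dsp, were above 0 in 8 of 12 genes. Of these 12, edgeR called 2 higher (Lor and Ivl), DESeq2 5 higher and 1 lower, and voom 4 higher. The 4 below 0 were Krt5 (-0.013), Krt14 (-0.359), Krt17 (-0.985) and Dsg3 (-1.251), so the markers had no common direction. The 12 markers summed to 66090 and 61010 CPM against 19630 and 43980 CPM. None was at 0 in any library, and their part in the result was not tested.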

How the data were processed

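The deposited values are raw read counts per Ensembl gene, made by the authors; the build GRCm38 and the tools STAR 2.5.4b, Trimmomatic, featureCounts, bcl2fastq 2.19 and edgeR are listed, with no roles, in the submitters' processing notes. For the annotation release, strand setting and gene filter, nothing is given in the sources used here. Symbols, positions and exon lengths came from GENCODE M21 on GRCm38 (22291 identifiers matched, 233 not), and promoters from RefSeq's GRCm38.p6 table. Tests used edgeR 4.0.16 (R 4.3.3): filterByExpr with minimums of 10 and 15 counts, TMM scaling, a robust quasi-likelihood fit with group as its term and 2 residual degrees of freedom, and Benjamini-Hochberg adjustment over 14265 genes. Each SE is the fold change over the root of its F statistic, and intervals are 95%. DESeq2 1.42.0 and limma 3.58.1 were alternatives. The code was tested on counts simulated with the spread fitted to these data. Of 100 genes changed 2 times edgeR recovered 25%, and of 100 changed 4 times 76%, with 25 false calls. A gene that did not pass may therefore still differ, and a gene that passed may be a false call. Total counts were 14808801 to 20600297. All 38 members are named. From the other lists came the 4 genes with the smallest p (melanosome and melanocyte genes) or the 2 of highest mean CPM (other cell types). Also named are edgeR's calls among fibroblast and keratinocyte markers, and the keratinocyte markers below 0. Members, classes and lists were chosen with earlier results of these data known. Protein sequences were not used here.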

Additional observations from a re-analysis of the deposited data

How the results depend on the processing

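Of the 38 members, 21 kept their direction under all 10 alternatives tried for single genes and 17 did not; those kept were 6 of 10 restricted, 6 of 11 shared and 9 of 17 ubiquitous genes. The count of members past the threshold was 0 with RLE size factors, in voom and with a fit that was not robust, 2 with no filter on low counts and 2 in DESeq2, and 0 to 2 when a library was left out; the 2 were Slc7a11 and Gpnmb each time. Of all genes, 6.95% passed with no filter, 6.5% in DESeq2 and 0.63% to 7.66% when a library was left out, the highest without NrasQ61K replicate 2. The count for the further list of melanosome genes was 4 with no filter, 4 in DESeq2 and 0 to 4 when a library was left out, the same 4 genes each time. In both counts the higher number was without NrasQ61K replicate 2. With the replicate number as a replicate block the counts were 3 (Slc7a11, Gpnmb and Hps3, adjusted p = 0.0382) and 4; the block raised the calls over all genes from 253 to 1337 (9.37%). The labels do not say that a number marks a shared animal or day, and same-numbered libraries deviated together with r = 0.141 across genes. The restricted median was 0.07 to 0.49 when a library was left out, and the shared median -0.56 to 0.33. Members whose direction turned when a library was left out had ranges of -0.38 to 0.37 (Tyrp1), -0.38 to 0.46 (Pmel), -0.69 to 0.56 (Bace2), -0.56 to 0.13 (Cd63), -0.84 to 0.78 (Oca2), -0.51 to 0.01 (Gpr143), -1.08 to 0.08 (Tpcn2), -0.19 to 0.22 (Atp7a), -0.56 to 0.33 (Mlph), -0.18 to 0.58 (Rab38), -0.30 to 0.16 (Bloc1s1), -0.15 to 0.38 (Bloc1s3), -0.29 to 0.11 (Hps5), -0.44 to 0.49 (Hps6), -0.03 to 0.39 (Ap3d1), -0.19 to 0.11 (Lyst) and -0.07 to 0.12 (Vps33a). Values near 0 also turned sign between tools and scalings: Atp7a was 0.00 with RLE size factors, in DESeq2 and in voom, Vps33a was 0.02 with RLE size factors and in DESeq2 and 0.00 in voom and with the block, and Hps6 was -0.03 in voom. The causes were not tested. With 2 libraries a group, the interval of every restricted gene was wider than its difference.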

Other observations

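Ratios within a library do not depend on its scaling. The length-scaled ratio of Tyrp1 to Dct, chosen after its values were seen, was 0.435 in Ezh2Y646N replicate 1, 0.420 and 0.424 in the NrasQ61K libraries, and 0.205 in Ezh2Y646N replicate 2. That library thus had the highest Dct and the lowest Tyrp1 of the 4. It is also the library with Y-linked RNA near 0, and a link between these was not tested. The ratio of Dct to Tyr was 10.2 and 15.1 in Ezh2Y646N and 10.4 and 13.3 in NrasQ61K. Pmel over Mlana was 0.775 and 0.615 against 0.700 and 1.02. Pmel over its relative Gpnmb was 2.18 and 1.43 against 0.459 and 1.36, with NrasQ61K replicate 1 apart from the rest. Rab32 over Rab38 was 0.269 and 0.533 against 0.281 and 0.374.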
